A study of Mus musculus with 6 samples.

Results

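The miR-297, miR-466, miR-467 and miR-669 family is a set of rodent miRNAs whose hairpins lie, for the most part, inside an intron of the Sfmbt2 gene. It was followed here in small RNA of extracellular vesicles, which are membrane-bound particles shed by cells. Its members were taken by name, as every row of the deposited table that begins with miR-297, miR-466, miR-467 or miR-669 followed by a letter or a hyphen. This gave 54 of the 1926 rows. They held 79 mature miRNA names, because 13 of the 54 rows merge several names joined by slashes, out of 35 merged rows in the whole table.

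The vesicles came from brain tissue of mice after status epilepticus, a prolonged seizure (SE-BDEV 1 to 3), and from matched control mice (CON-BDEV 1 to 3), with 3 libraries in each group. All titles carry day 10. The strain, age and sex of the mice, the agent behind the seizure and the starting point of the day count are missing from the labels used here. Nor do the labels state whether each library is a different mouse, so the p-values below reflect variation between libraries that may be technical.

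A miRNA hairpin is cut into a pair of strands, named 5p and 3p after the arm they come from, and usually one of them is kept and loaded into Argonaute while the other is degraded. The loaded strand finds its targets mainly through its seed, bases 2 to 8. Sfmbt2 encodes a Polycomb group protein, and in mouse the gene is imprinted and transcribed from the paternal copy, above all in the placenta and other extra-embryonic tissue. The intronic cluster arose by repeated duplication in rodents, and its hairpins are built from simple CA and UG repeats, which makes many of the mature strands nearly alike. The cluster is best known for its part in placental growth.

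Sequences are shown for 4 mature strands, as examples of repeat-like strands that carry the family's names, with the seed in capitals. They were read from the RefSeq table for GRCm38.p6, which held 8 of the 79 names. All 8 are encoded outside Sfmbt2, on chromosomes 3, 5, 9, 10, 11 and 13. The 5 most abundant members are not among them. The rows of miR-466i-3p, miR-466j and miR-466k also hold names with hairpins in Sfmbt2, so the values of those rows do not separate the locations. The strands are given as examples, and not as sequences of the intronic cluster. The first pair belong to rows above 0 in the vesicles, and the last pair to rows listed at 0.
miR-466i-3p: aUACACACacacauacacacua
miR-466j: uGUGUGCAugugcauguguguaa
miR-466q: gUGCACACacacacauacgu
miR-466k: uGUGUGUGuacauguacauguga
The 8 strands had 8 distinct seeds. An uninterrupted run of at least 8 bases that alternates C with A, or U with G, was found in 6 of the 8 strands, against 7 of the 1671 mature miRNAs of other names in the same table (0.419%). Of these 6 strands 5 belong to rows listed at 0 in every library. The search covered the mature strand only, and the CA and UG runs do not overlap. The longest such run was 11 bases in miR-466i-3p, 7 in miR-466j, 12 in miR-466q and 9 in miR-466k. Base composition of the strands ran from 23.8% GC in miR-467g to 50.0% in miR-466q.

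The name of the family and its locus were not the same set. GENCODE M21 (GRCm38) annotates 81 hairpins with these names, and 71 of them lie in Sfmbt2 on chromosome 2. All 71 lie on the strand of Sfmbt2 and within intron 10 of an annotated Sfmbt2 transcript, over 51.6 kb, and none overlaps an annotated Sfmbt2 exon. The other 10 hairpins lie on chromosomes 3, 5, 7, 9, 10, 11 and 13. Among them is Mir466i, the hairpin of miR-466i-5p, which lies on chromosome 13 within Cdk13 and on the opposite strand to it. Of the 54 rows, 42 trace to hairpins in Sfmbt2 alone, 6 to hairpins elsewhere alone and 6 to both, so the label of an Sfmbt2 cluster holds for most rows but not for all. Matching was by name, and no coordinates are given because the submitters' processing notes name another build, mm9.

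The libraries held 4400167 to 9391887 reads assigned to miRNAs, with 532 to 631 rows above 0. Levels are given as RPM, the reads of a miRNA scaled to one common total per library. On that scale 3 reads were worth 0.319 to 0.682 RPM, so a member listed at 0 could have been present below about that level. These floors cover counting error only. The neuronal markers miR-124-3p, miR-9-5p, miR-128-3p and miR-138-5p were at 3550 RPM or more in every library, and neither red blood cell marker, miR-451a or miR-144-3p, was above 0 in any. One further miRNA, miR-24-3p, was above 0 in the libraries numbered 3 alone.

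In these vesicles the family was a small component carried by a few 5p strands. Its summed level was 476, 402 and 489 RPM in CON-BDEV 1, 2 and 3, and 476, 543.6 and 618 RPM in SE-BDEV 1, 2 and 3. SE-BDEV 2 and 3 were the highest and CON-BDEV 2 the lowest, while SE-BDEV 1 lay within the range of the controls, so the groups overlapped. The control mean was 455 ± 47.0 RPM and the SE-BDEV mean 546 ± 71.3 RPM (SD, n = 3), a ratio of 1.20. The family rested on 2093 to 4466 reads per library. For comparison, the 97 rows of the Dlk1-Dio3 region, another imprinted miRNA cluster, summed to 31394 ± 911 RPM in controls and 28183 ± 2068 RPM after status epilepticus (SD, n = 3). With each 1 of the 6 libraries left out in turn, the mean log2 difference of the summed family level ranged from 0.16 to 0.35, around 0.26 with all 6.

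Of the 54 member rows 30 (55.6%) were above 0 in at least 1 library, beside 41.7% of all rows in the table. By mean level over the 6 libraries, 5 members reached 10 RPM, 10 lay between 1 and 10 RPM and 15 lay below 1 RPM. The 5 most abundant, miR-669c-5p, miR-466i-5p, miR-467e-5p, miR-467c-5p and miR-467d-5p, made up 91.0% to 92.9% of the family in each library. miR-669c-5p alone was the top member in all 6, at 48.9% to 57.7% of the family.

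**Figure D1:**
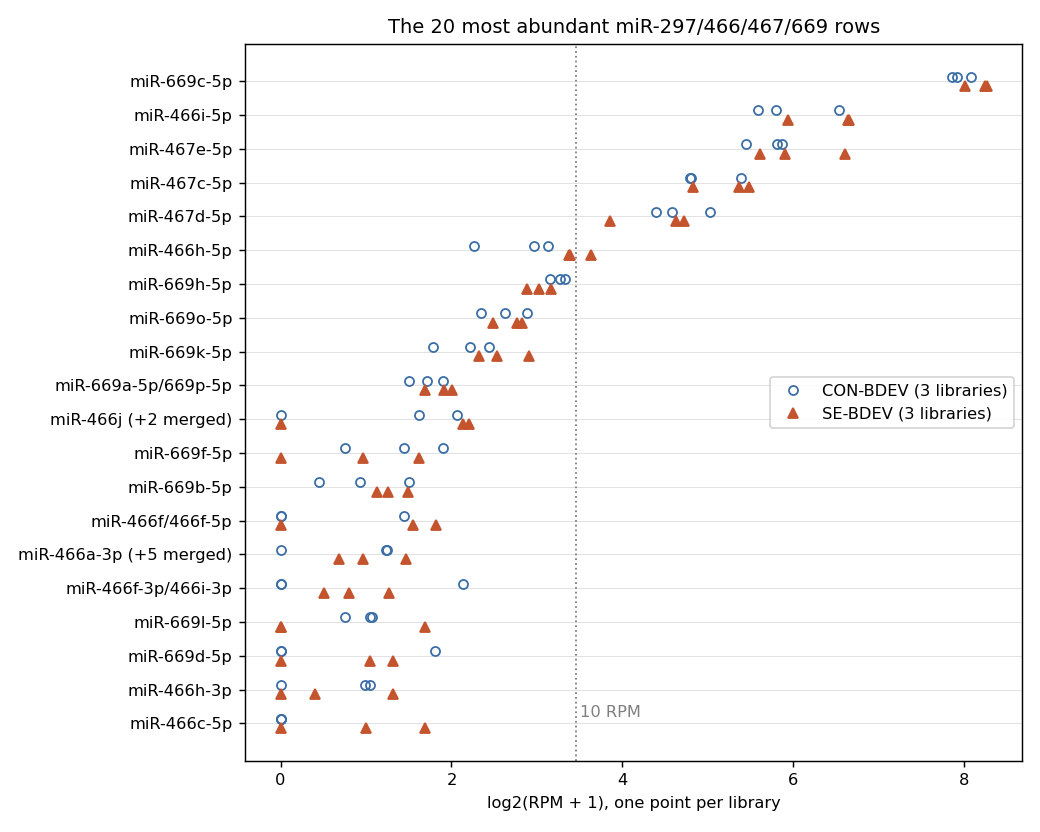
Level of the 20 most abundant member rows in each library, as log2(RPM + 1) on the horizontal axis, with open circles for CON-BDEV and filled triangles for SE-BDEV. The 5 rows wholly to the right of the dotted 10 RPM line hold at least 91.0% of the family in each library, and miR-466h-5p is the only plotted row whose SE-BDEV points all lie to the right of its CON-BDEV points.

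The miR-669 rows carried most of the signal. Their sum averaged 271 ± 21.9 RPM in controls and 314 ± 27.1 RPM after status epilepticus (SD, n = 3). miR-669c-5p stood at 240, 232 and 268 RPM in CON-BDEV 1, 2 and 3, and at 257, 307 and 302 RPM in SE-BDEV 1, 2 and 3. SE-BDEV 2 and 3 were above all controls, and SE-BDEV 1 was below CON-BDEV 3. It was the most deeply counted member, at 1057 to 2416 reads per library. Its group means of 247 ± 19.2 and 289 ± 27.5 RPM (SD, n = 3) gave a difference of 0.23 ± 0.28 on the log2(RPM + 1) scale (SE, limma adjusted p = 0.782).

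The other miR-669 rows were lower by more than a factor of 10. miR-669h-5p stood at 8.64, 9.08 and 7.90 RPM in the controls and at 7.13, 6.41 and 8.0004 RPM in SE-BDEV 1, 2 and 3, so that only SE-BDEV 3 reached into the range of the controls. miR-669o-5p was at 5.21 ± 1.15 and 5.49 ± 0.787 RPM, and miR-669k-5p at 3.50 ± 0.984 and 5.10 ± 1.29 RPM, in CON-BDEV and SE-BDEV (SD, n = 3). Both overlapped between the groups. The row merging miR-669a-5p with miR-669p-5p, whose miR-669a is known for repressing the muscle regulator MyoD, was at 2.28 ± 0.448 and 2.66 ± 0.400 RPM (SD, n = 3). Its names match 14 hairpins. miR-669b-5p was above 0 in all 6 libraries at 0.368 to 1.82 RPM. miR-669f-5p was above 0 in 5, miR-669l-5p in 4 and miR-669d-5p in 3, at no more than 2.74 RPM. Of the 24 miR-669 rows 12 were above 0.

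Among the miR-466 rows, miR-466i-5p was the abundant one. Of the 6 member rows that trace by name to hairpins outside Sfmbt2 alone, it was the only row above 0. It stood at 91.8, 46.9 and 54.4 RPM in CON-BDEV 1, 2 and 3, and at 60.2, 98.5 and 99.6 RPM in SE-BDEV 1, 2 and 3. CON-BDEV 1 reached nearly the level of SE-BDEV 2 and 3, and SE-BDEV 1 lay among the controls. The group means of 64.4 ± 24.1 and 86.1 ± 22.4 RPM (SD, n = 3) gave a log2 difference of 0.44 ± 0.35 (SE, limma adjusted p = 0.673). It held 15.0% of the family's mean RPM, against 84.1% for rows that trace to Sfmbt2 alone and 0.920% for rows that trace to both. Rows of Sfmbt2 alone averaged 387 ± 43.1 RPM in controls and 454 ± 51.1 RPM after status epilepticus (SD, n = 3).

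miR-466h-5p, which has been described as promoting apoptosis in cultured cells, was the only member above 1 RPM whose groups did not overlap. It stood at 6.82, 3.81 and 7.75 RPM in CON-BDEV 1, 2 and 3, and at 11.4, 9.41 and 9.48 RPM in SE-BDEV 1, 2 and 3, from 30 to 107 reads. The lowest SE-BDEV library was above the highest control. With a mean of 8.11 RPM it fell below the filter of the main comparison, and with the filter at a mean of 1 RPM its log2 difference was 0.68 ± 0.36 (SE, limma adjusted p = 0.585, unadjusted p = 0.0836). The difference was 0.42 without CON-BDEV 2 and 0.32 with a pseudocount of 10 RPM. The row merging miR-297a-3p, miR-297b-3p and miR-297c-3p also did not overlap, at 0.245 RPM in CON-BDEV 2 alone among controls and 0.319 to 1.20 RPM in SE-BDEV, but these are 2 to 6 reads. Together 2 of the 30 members above 0 were higher in SE-BDEV with no overlap and none was lower, beside 7.35% higher and 3.11% lower of the 803 rows above 0 in the table.

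Other miR-466 rows were near the limit of detection. The row merging 6 names from miR-466a-3p to miR-466p-3p was above 0 in 5 libraries at up to 1.78 RPM, and the row merging miR-466j, miR-466m-5p and miR-669m-5p in 4 at up to 3.60 RPM. The row merging miR-466f and miR-466f-5p was above 0 in 3 libraries. The row merging miR-466f-3p with miR-466i-3p was highest in CON-BDEV 1, at 3.41 RPM, was listed at 0 in the other CON-BDEV libraries, and lay at 0.426 to 1.40 RPM in SE-BDEV. These sequences are near-identical between loci, and no source used here states how reads that match several of them were assigned, so the division among such rows is uncertain.

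The miR-467 rows were the second largest group, averaging 108 ± 19.3 RPM in controls and 126 ± 32.9 RPM after status epilepticus (SD, n = 3), above the miR-466 rows at 75.6 ± 25.99 and 105 ± 24.7 RPM. miR-467e-5p stood at 57.3, 42.7 and 55.2 RPM in CON-BDEV 1, 2 and 3, and at 48.0, 58.6 and 96.0 RPM in SE-BDEV 1, 2 and 3. SE-BDEV 3 alone was far above the rest, and SE-BDEV 1 was lower than CON-BDEV 1 and 3. Its log2 difference was 0.33 ± 0.33 (SE, limma adjusted p = 0.741), and without SE-BDEV 3 it was 0.048. miR-467c-5p stood at 26.6, 27.0 and 40.7 RPM in the controls and at 43.5, 27.4 and 40.2 RPM in SE-BDEV 1, 2 and 3, with CON-BDEV 3 above SE-BDEV 2 and 3 (log2 difference 0.23 ± 0.33, SE, limma adjusted p = 0.803).

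miR-467d-5p was the one abundant member with the lower mean in SE-BDEV. It stood at 23.0, 20.01 and 31.5 RPM in the controls and at 23.6, 13.4 and 25.3 RPM in SE-BDEV 1, 2 and 3. SE-BDEV 2, with 67 reads of it, was the lowest, and the other SE-BDEV libraries lay within the controls. Its log2 difference was -0.27 ± 0.35 (SE, limma adjusted p = 0.791), and without SE-BDEV 2 it was 0.0055. The miR-297 rows were nearly empty, with 2 of 4 above 0 and no value above 1.20 RPM.

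To ask whether vesicle miRNAs differ after status epilepticus, limma was fitted to log2(RPM + 1) of the 308 miRNAs whose mean reached 10 RPM. None of the 5 tested members passed an adjusted p of 0.05, beside 0.974% of all tested miRNAs (3 of 308). At an unadjusted p under 0.05 the count was again 0 of 5, beside 10.4% of all tested miRNAs, and the smallest member p was 0.232, for miR-466i-5p, at rank 105 of 308. With the replicate number as a block 0 of 5 passed either threshold, beside 3.25% of all tested miRNAs at the adjusted one and 17.2% at the unadjusted one. The 95% intervals of the differences ran from -0.32 to 1.19 for miR-466i-5p, -0.39 to 1.05 for miR-467e-5p, -0.39 to 0.84 for miR-669c-5p, -0.47 to 0.93 for miR-467c-5p and -1.02 to 0.48 for miR-467d-5p. For miR-669c-5p, the narrowest, this spans a fall to 0.764 of the control level and a rise to 1.79 of it, so differences of that size could not be told from none.

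By sign, 4 of the 5 tested members were higher in SE-BDEV, beside 57.5% of all tested miRNAs, and their median log2 difference was 0.23 beside 0.061. The signs were not stable under a correction for hairpin base composition, which was chosen after seeing the data. The hairpins of these 5 have 33.1% to 42.4% GC, against a median of 51.9% over tested miRNAs. With a GC trend removed from each library all 5 were lower, at a median of -0.058 beside -0.031 for all tested. The 4 that changed sign lay close to no difference, at -0.082 to -0.024, and the cause was not tested. Under median-of-ratios scaling 4 of 5 were still higher, at a median of 0.16 beside -0.0078.

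**Figure D2:**
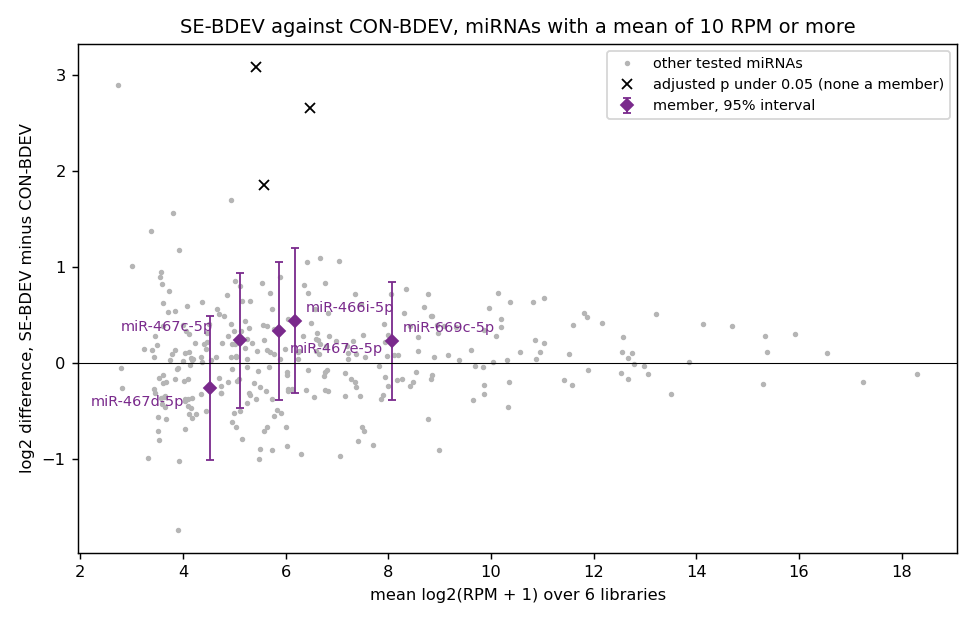
Log2 difference of SE-BDEV from CON-BDEV against the mean log2(RPM + 1) over 6 libraries for the 308 tested miRNAs, with the 5 tested members as diamonds with 95% intervals and the 3 miRNAs past the threshold as crosses. All 5 member intervals cross 0, and the members lie inside the cloud of other miRNAs.

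With the filter lowered to a mean of 1 RPM, 15 members entered the fit and 0 passed, beside 0.517% of 580 miRNAs, and 0 had an unadjusted limma p under 0.05, beside 7.93%. Of these 15, 12 were higher in SE-BDEV, beside 56% of the 580. With all 803 rows above 0, the 30 members gave 0 at the adjusted threshold in limma, beside 0.374%, and 0 at an unadjusted p under 0.05, beside 5.6%. In the authors' deposited table, made with DESeq2, 0 of the 19 members with an adjusted p were under 0.05, beside 1.12% of the 625 rows that have one, and 0 of 30 had an unadjusted p under 0.05, beside 6.52% of 797. The smallest member p in the authors' deposited table was 0.173, for miR-466h-5p at a log2 fold change of 0.68. For all 5 abundant members the sign in the authors' deposited table was that of limma.

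Among marker miRNAs of cell types and tissues in the same libraries, some sums overlapped between the groups and others did not. Over the whole table, 7.35% of the 803 rows above 0 were higher in SE-BDEV without overlap. The oligodendrocyte pair, miR-219a-2-3p and miR-338-3p, summed to 137 to 170 RPM in controls and 198 to 296 RPM after status epilepticus. The sum was mostly miR-338-3p, while miR-219a-2-3p overlapped between the groups and was lowest, at 20.7 RPM, in SE-BDEV 3, the library with the highest sum. The muscle pair, miR-1a-3p and the row holding miR-133a-3p, summed to 54.3 to 116 RPM and 121 to 207 RPM. This sum was almost wholly miR-1a-3p, as the row holding miR-133a-3p reached at most 2.81 RPM. The liver marker miR-122-5p stood at 75.0 to 79.7 RPM and 88.7 to 132 RPM. The neuronal markers summed to 23125 to 28314 RPM and 19322 to 37113 RPM. The 3 myeloid and other blood markers summed to 70.2 to 95.6 RPM and 75.6 to 97.5 RPM, mostly from miR-150-5p. Its other members did not follow that sum. miR-142a-3p stood at 3.81 to 7.14 RPM in controls and 10.1 to 21.9 RPM after status epilepticus, and miR-223-3p at 0 to 3.41 RPM and 4.30 to 7.21 RPM, both without overlap. miR-150-5p stood at 63.8 to 88.5 RPM and 49.3 to 81.2 RPM, with overlap. Their part in the family's values was not tested. In a bulk preparation fewer vesicles of a source and less of a miRNA per vesicle cannot be told apart.

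The number of members above 0 varied between libraries. CON-BDEV 1, 2 and 3 had 16, 21 and 17 members above 0, and SE-BDEV 1, 2 and 3 had 22, 17 and 28. SE-BDEV 3 had the most, although SE-BDEV 1 and CON-BDEV 2 were sequenced more deeply, and CON-BDEV 1 and SE-BDEV 2, the shallowest, were among the lowest. SE-BDEV 3 also had the most rows above 0 in the whole table, 631 (32.8%), against 605 in SE-BDEV 1 and 592 in CON-BDEV 2. At or above 0.682 RPM, the value of 3 reads in the shallowest library, the numbers were 16, 17 and 16 in CON-BDEV and 17, 15 and 23 in SE-BDEV. SE-BDEV 3 thus stayed highest at a common floor, while the other 5 libraries lay within 15 to 17.

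**Figure D3:**
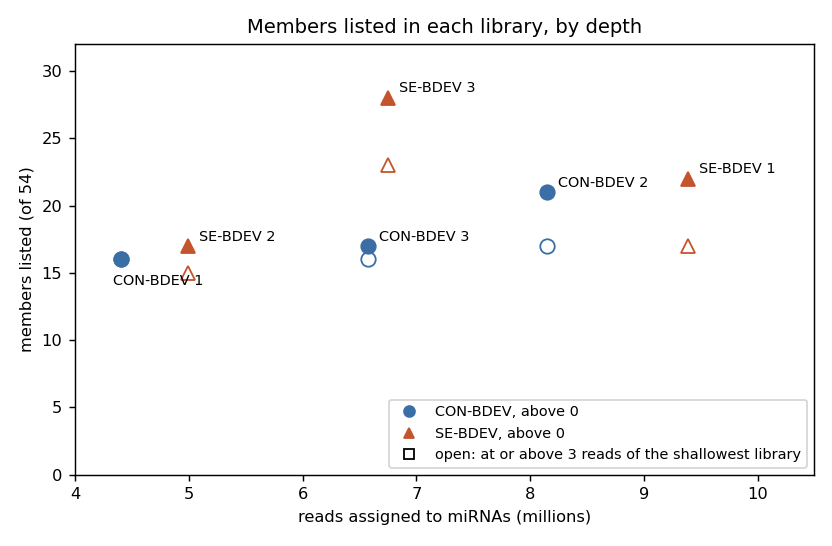
Members listed above 0 (filled) and at or above the value of 3 reads in the shallowest library (open), of 54, against the number of reads assigned to miRNAs, with circles for CON-BDEV and triangles for SE-BDEV. SE-BDEV 3 has 28 and 23, more than the 16 to 22 and 15 to 17 of the other libraries.

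Of the 30 members above 0, 11 were above 0 in all 6 libraries, beside 53.2% of all rows above 0. A further 6 were listed at 0 in all CON-BDEV libraries, beside 12.1% of all rows above 0, and for 1 every SE-BDEV value was 0, beside 9.71%. The 6 were miR-466c-5p, the merged rows that start with miR-466a-5p, miR-466d-5p and miR-467a-5p, miR-466n-3p and miR-669e-5p, named here after their values were seen. They reached at most 2.22 RPM, and none of them was above 0 in all 3 SE-BDEV libraries. The 1 row above 0 in CON-BDEV alone was miR-297a-5p, at 0.859 RPM in CON-BDEV 2. The highest of the 6, miR-466c-5p, stood at 1.00 RPM in SE-BDEV 2 and 2.22 RPM in SE-BDEV 3, which are 5 and 15 reads, and was listed at 0 in SE-BDEV 1. SE-BDEV 3 had 5 of these 6 rows above 0, the exception being miR-669e-5p, and 2 of the 5, miR-466n-3p and the row of miR-467a-5p, were above 0 in no other library.

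By listed RPM, arm use was one-sided. Over rows whose name gives 1 arm, 5p strands made up 99.3%, 99.2% and 99.2% of the RPM in CON-BDEV 1, 2 and 3 and 99.5%, 99.3% and 98.8% in SE-BDEV 1, 2 and 3. The means were 99.2% ± 0.0414 and 99.2% ± 0.346 (SD, n = 3), so the groups did not differ by more than the spread between libraries. In the Dlk1-Dio3 rows the 5p share was 62.5% ± 2.13 and 60.1% ± 3.33, and over all other rows outside the let-7 family 69.4% ± 0.859 and 70.0% ± 2.54 (SD, n = 3). Only 2 of the 97 Dlk1-Dio3 rows are merged, against 13 of the 54 member rows. The 3p row of miR-467c, miR-467d and miR-467e matches 13 hairpins, while miR-669c-3p matches 1. How reads that match several hairpins were assigned is not stated. In such merged rows, low 3p use and a loss of reads cannot be told apart.

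The number of rows above 0 was one-sided too, though merged rows hold several names and are not single strands. Per library, 12 to 18 member rows named 5p and 1 to 8 named 3p were above 0. Over all rows these numbers were 276 to 321 and 225 to 272. Of 22 rows named 5p, 20 were above 0 and 11 were above 0 in all 6 libraries. Of 20 rows named 3p, 8 were above 0 and none in all 6. The 12 rows with no arm or with mixed names held 2 above 0. Without miR-669c-5p the difference in 5p share between the groups was 0.062 percentage points, again within the spread between libraries.

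**Figure D4:**
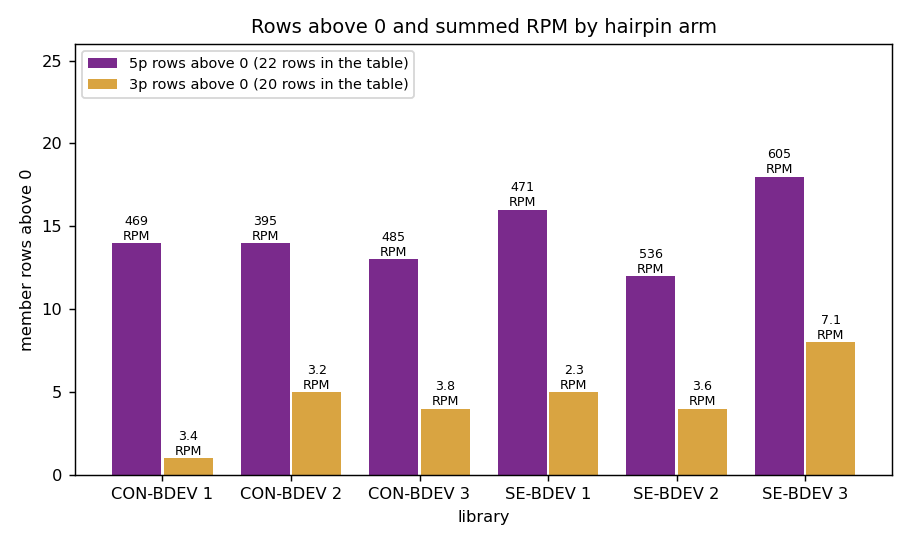
Number of 5p and 3p member rows above 0 in each library, with the summed RPM of each arm printed above its bar. The 5p rows sum to 395 to 605 RPM and the 3p rows to 2.3 to 7.1 RPM.

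By mean level, the arm with the higher row differed between names of the sub-families. For all 11 miR-669 names with both arms in the table, the 5p row had the higher mean, and for 8 of them the 3p row was listed at 0 in every library. miR-669c-3p was one of these, listed at 0 in all 6 libraries opposite the most abundant 5p strand of the family. For the 3 miR-297 names the 3p row, shared by all of them, had the higher mean. The 13 miR-466 names split into 5 with the higher 5p row, 7 with the higher 3p row and 1 with both at 0, and the 5 miR-467 names into 4 and 1. Many of these names share a merged row, so they are not independent. Wherever the 3p row had the higher mean, neither row averaged more than 1.01 RPM. Those cases are too low to give an arm preference.

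Where both arms were above 0 in at least 3 libraries, the 5p share could be followed by library. For miR-466h it was 79.5% to 100% and for miR-669o 93.3% to 100%. For miR-669a it was 83.3% to 100%. These last shares rest on 1 3p row merged from miR-669a-3p and miR-669o-3p, and the 5p row of miR-669a also holds miR-669p-5p. For miR-466i the share was 96.4% to 100%, where the 3p row is shared with miR-466f. miR-466f itself ranged from 0% to 100% over the 5 libraries that had any, with at most 18 reads in either row, too few to give an arm preference.

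Level also varied along the intron. Among the 42 rows of Sfmbt2 alone, 30 come from a single hairpin, and these can be placed on the cluster. Of their 14 5p rows, 12 were above 0. miR-669f-5p, miR-669e-5p, miR-669b-5p and miR-669l-5p, within 2.31 kb of the first hairpin, had means of 0.231 to 1.36 RPM. miR-467c-5p followed at 7.27 kb with 34.2 RPM. miR-467e-5p, miR-467d-5p and miR-669c-5p lay together at 39.1, 41.0 and 42.6 kb with 59.6, 22.8 and 268 RPM. Between miR-467d and miR-669c, at 42.4 kb, miR-297c-5p was listed at 0, so high and undetected strands were neighbours. miR-669o-5p, miR-466h-5p and miR-669h-5p closed the cluster at 47.6 to 51.5 kb with 5.35 to 8.11 RPM.

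**Figure D5:**
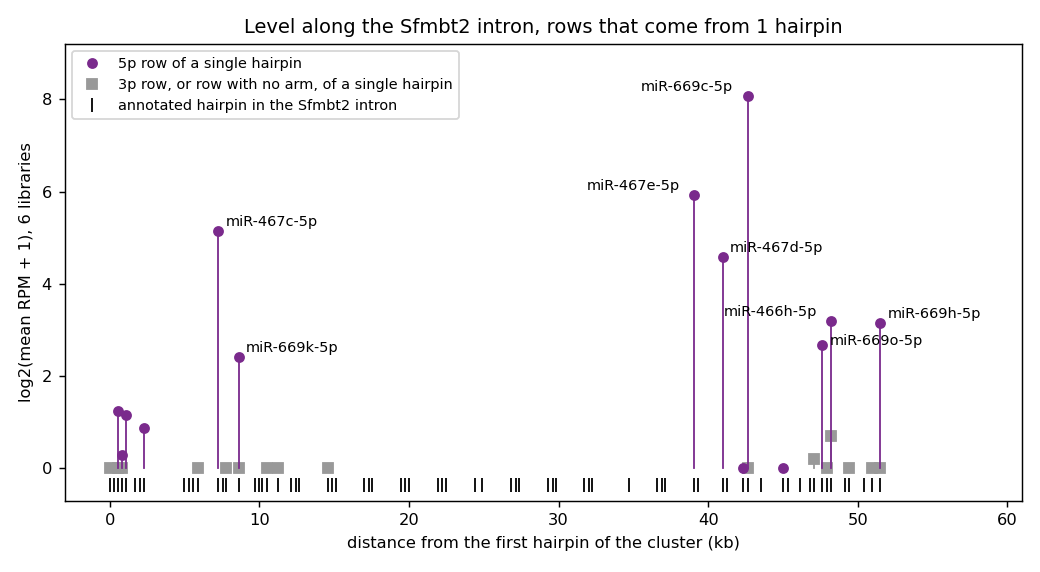
Mean level over 6 libraries, as log2(mean RPM + 1), of rows that come from a single hairpin, against the distance of that hairpin from the first of the cluster in kb, with ticks for all 71 hairpins. The 5p rows rise highest at 7.27 kb and from 39.1 to 42.6 kb, and the 3p rows lie at or near 0.

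The stretch between these groups is filled by repeated copies of miR-466, miR-467a and miR-669a hairpins that share their mature names. Rows that match 2 or more hairpins were listed at low levels. The 15 of them above 0 had means of at most 2.47 RPM, and rows of a single hairpin held 97.9% of the family's mean RPM. The row merging miR-467a-5p with miR-467b-5p matches 11 hairpins and was above 0 in SE-BDEV 3 alone, at 0.296 RPM, which is 2 reads. No source used here states how reads that match several hairpins were assigned. In these rows, and in the 97.9%, a low level and a loss of such reads therefore cannot be told apart.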

How the data were processed

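Small RNA of 3 CON-BDEV and 3 SE-BDEV libraries was analysed, extracted by the miRNeasy Micro Kit and prepared by the QIAseq miRNA Library Kit, per the labels. The authors deposited RPM values, and a table of their own comparison. That deposited table holds, from the authors, a mean signal, a log2 fold change and its SE, a test score and p-values. DESeq2 and mm9 are named in the submitters' processing notes of the authors. No source used here states the aligner, the counting tool or the use of molecular identifiers.

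All RPM values were whole multiples, within 0.001 step, of 1 step per library, taken as 1 read. The smallest listed value was 2 steps, so the values were not treated as counts and the planned edgeR and DESeq2 fits were not run. limma 3.58.1 (R 4.3.3, statmod 1.5.0) was run two-sided, with trended and robust variance moderation, on log2(RPM + 1) of the 308 miRNAs that averaged at least 10 RPM. Benjamini-Hochberg adjustment covered all 308 and calls were made under 0.05. The scale understates changes of low miRNAs. The fit was tested on simulated data with changes larger than the differences of the tested members. That test therefore gives no measure of power at differences of their size.

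Deviations from group means correlated at 0.216, 0.202 and 0.462 between same-numbered libraries, all over the bound of 0.1 used to treat numbers as pairs. Between differently numbered libraries they ran from -0.410 to 0.336. CON-BDEV 2 with SE-BDEV 1, at 0.336, and CON-BDEV 1 with SE-BDEV 2, at 0.200, were over that bound too. Without miR-24-3p, seen in both libraries numbered 3 alone, the same-numbered values were -0.064, -0.061 and -0.081, and the labels state no pairing.

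The members and lists were chosen with earlier results of these data known. Members are named by rule: a mean of 10 RPM or more, the 20 of highest mean, merged rows above 0, an unadjusted p under 0.05 (none met this), or both arms above 0 in at least 3 libraries. Members named outside it are described as listed at 0, as placed on the intron, or as chosen after their values were seen. Hairpin positions and GC came from GENCODE M21, and sequences from RefSeq. Figures were drawn with matplotlib 3.10.9.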

Additional observations from a re-analysis of the deposited data

How the results depend on the processing

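No member passed the adjusted threshold under any of 19 alternatives, the authors' deposited table included. Over all tested miRNAs 3 passed in limma. The number was 1 with a mean of 100 RPM or more, 7 in the authors' deposited table, 10 with the replicate number as a block, and 2 to 8 with each library left out in turn, the 8 without CON-BDEV 2. The replicate block changed no member's call, with a smallest limma adjusted p of 0.560 among members.

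With a GC trend of the hairpins removed from each library, an alternative chosen after seeing the data, the log2 differences became -0.082 for miR-669c-5p, -0.024 for miR-466i-5p, -0.043 for miR-467e-5p and -0.058 for miR-467c-5p, and that of miR-467d-5p widened to -0.51, with and without the replicate block. For miR-467d-5p, leaving out each library in turn gave -0.43 to 0.0055, the latter without SE-BDEV 2. The same range was 0.24 to 0.72 for miR-466i-5p, lowest without CON-BDEV 2 and highest without CON-BDEV 1, and 0.048 to 0.54 for miR-467e-5p, lowest without SE-BDEV 3 and highest without SE-BDEV 1. It was 0.10 to 0.43 for miR-467c-5p, lowest without SE-BDEV 1 and highest without SE-BDEV 2, and 0.18 to 0.31 for miR-669c-5p. For the reversals the cause was not tested. The group differences in summed level, 5p share and number of members above 0 moved by less than the spread between libraries under each alternative run on them. For the number of members above 0 that spread, 4.32, was nearly as large as the difference, 4.33. The difference was 1.5 without SE-BDEV 3, 1 without both libraries numbered 3, and 7 without SE-BDEV 2.

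The planned GC correction by mature sequence was void, since 0 of 5 tested members had one, and the planned edgeR and DESeq2 fits were not run. Leaving out both libraries numbered 3, also chosen after seeing the data, left 0 members called, beside 4 of 303 tested miRNAs, and 4 of 5 higher, beside 52.5%. Members below 1 RPM rest on few reads. By counting error alone a 0 there allows a level up to about the value of 3 reads, or more where a single read went unlisted. Reads lost for other reasons are not covered by that value.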
